A study of Mus musculus with 4 samples.

Results

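Double-positive cells were defined as droplet barcodes with at least 1 UMI (unique molecular identifier, the tag of 1 captured RNA molecule) of *Dpp4* and at least 1 UMI of *Pi16*. They were selected on these measured counts, among barcodes with 5000 to 75000 UMIs, 200 to 7500 genes and under 10% mitochondrial UMIs. Of 28262 barcodes within these limits, 321 were double-positive. Another 2711 held *Dpp4* only, 1512 held *Pi16* only and 23718 were double-negative, with no UMI of either gene. The levels of *Dpp4* and *Pi16* chose the cells and are given as a description.

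Each of 4 culture conditions was sequenced as 1 library of primary cells. De-differentiated fat (DFAT) cells made up the libraries iWAT_DFAT and eWAT_DFAT and arise when floating mature adipocytes are kept in ceiling culture until they take a fibroblast-like shape. The iWAT_ASPC and eWAT_ASPC libraries hold adipose stem and progenitor cells (ASPCs) grown from the stromal vascular fraction. The depots were inguinal (iWAT) and epididymal (eWAT) white adipose tissue of chow-fed male C57BL/6J mice, without a genetic change or a treatment named for them. The age of the mice and the number pooled per culture were not given in the sources used here. Live cells were gated with the dye 7-AAD before loading. With 1 library per condition, no test between conditions was run. Intervals on shares, levels and ratios are 95% intervals of counting error only and leave out the spread between cells and between cultures.

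Dipeptidyl peptidase 4 (DPP4, also CD26) is a membrane enzyme that trims short peptides, including chemokines and gut hormones. Peptidase inhibitor 16 (PI16) is a secreted or membrane-anchored protein of the CAP family. In fresh adipose tissue both mark fibroblast-like cells of the interstitium that stand early in the path to adipocytes, upstream of committed preadipocytes that carry *Icam1* and *Pparg*. The files pair *Dpp4* with ENSMUSG00000035000, which the GENCODE M21 annotation of GRCm38 (mm10) places at chr2:62330073-62412231 on the minus strand. *Pi16* is ENSMUSG00000024011, at chr17:29317680-29330593 on the plus strand. Both are protein-coding genes.

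Most of the double-positive cells were DFAT cells of the inguinal depot. The iWAT_DFAT library held 270 among 7629 barcodes, a share of 3.54% (3.14 to 3.98%, exact binomial interval). The eWAT_DFAT library held 21 of 6464 (0.325%, interval 0.201 to 0.496%). The eWAT_ASPC library held 28 of 6745 (0.415%, interval 0.276 to 0.599%). The iWAT_ASPC library held 2 of 7424 (0.0269%, interval 0.00326 to 0.0973%). Among these 4 libraries the share was highest in iWAT_DFAT and lowest in iWAT_ASPC, and the intervals do not compare conditions.

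Each gene, counted with or without the other, was also most often seen in iWAT_DFAT. There 21.1% of barcodes had a *Dpp4* UMI and 18.6% a *Pi16* UMI. In eWAT_DFAT these shares were 6.08% and 1.75%. In eWAT_ASPC they were 12.1% and 2.97%, and in iWAT_ASPC 2.96% and 1.36%. Summed over all barcodes, *Pi16* stood at 24.6 CPM (UMIs of a gene per 1000000 UMIs) in iWAT_DFAT, against 1.08, 0.587 and 1.25 CPM in eWAT_DFAT, iWAT_ASPC and eWAT_ASPC. *Dpp4* stood at 15.5, 3.01, 1.51 and 9.03 CPM in the same order. Both genes put the libraries in the same order, with eWAT_ASPC second and iWAT_ASPC last.

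The number of double-positive cells was set beside the number that the separate shares of the 2 genes would give. Both come from the counts that chose the cells, so these values are a description. Within bins of UMI total, the product of the single-gene shares gave 282 double-positive barcodes in iWAT_DFAT, against 270 counted. The odds ratio of a *Dpp4* UMI with a *Pi16* UMI was 0.936 (0.807 to 1.09, within the same bins). In eWAT_DFAT the product gave 6.89 and 21 were counted, with an odds ratio of 3.71 (2.27 to 6.06). In eWAT_ASPC it gave 23.6 against 28 (odds ratio 1.22, 0.815 to 1.84), and in iWAT_ASPC 3.13 against 2 (odds ratio 0.628, 0.154 to 2.56). The count was thus near the product in iWAT_DFAT and above it in eWAT_DFAT. The intervals treat barcodes as independent and are no test over samples.

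**Figure D1:**
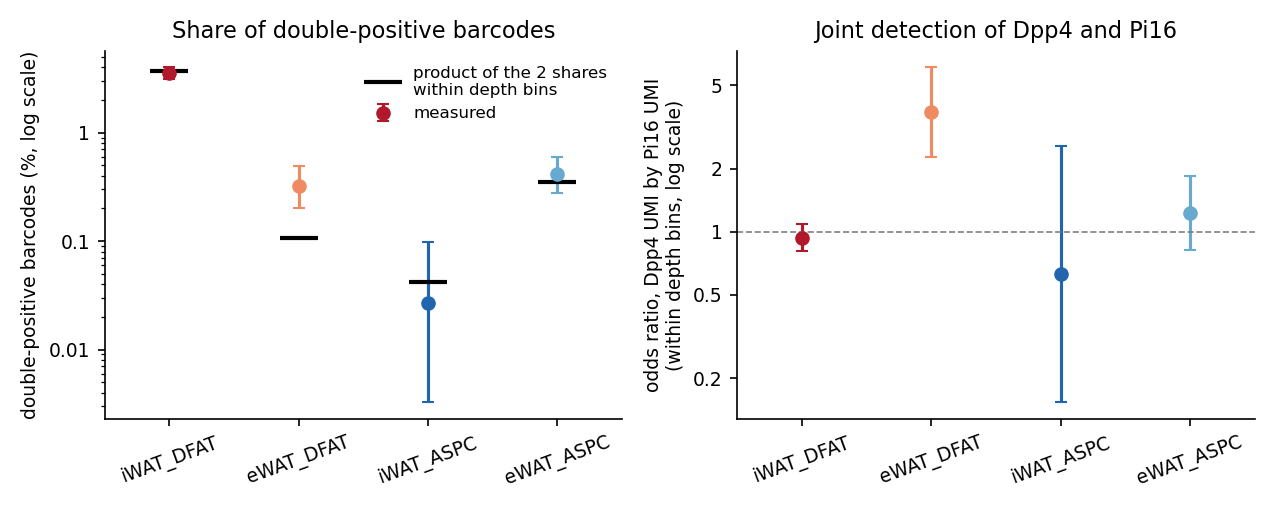
The left panel plots the share of double-positive barcodes (points, exact 95% binomial intervals, log axis) in each library beside the product of the single-gene shares within depth bins (black bars). The right panel plots the odds ratio of detecting both genes with its 95% interval of counting error on a log axis, at 0.936 in iWAT_DFAT, 3.71 in eWAT_DFAT, 0.628 in iWAT_ASPC and 1.22 in eWAT_ASPC.

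Higher counts of *Pi16* did not come with more *Dpp4* in iWAT_DFAT. Of barcodes with no *Pi16* UMI, 21.5% held *Dpp4*. The share was 20.4% at 1 *Pi16* UMI, 17.97% at 2 to 4 and 16.7% at 5 or more (12.2 to 21.9%). Median depth fell alongside, from 22559 UMIs to 18175 in the last class, and the part of depth in this order was not tested. In eWAT_DFAT the share with *Dpp4* was 5.86% without *Pi16* and 17.6% (10.4 to 27.0%) among the 91 barcodes with 1 *Pi16* UMI. The classes above that held 13 and 9 barcodes, and their intervals were wide.

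**Figure D2:**
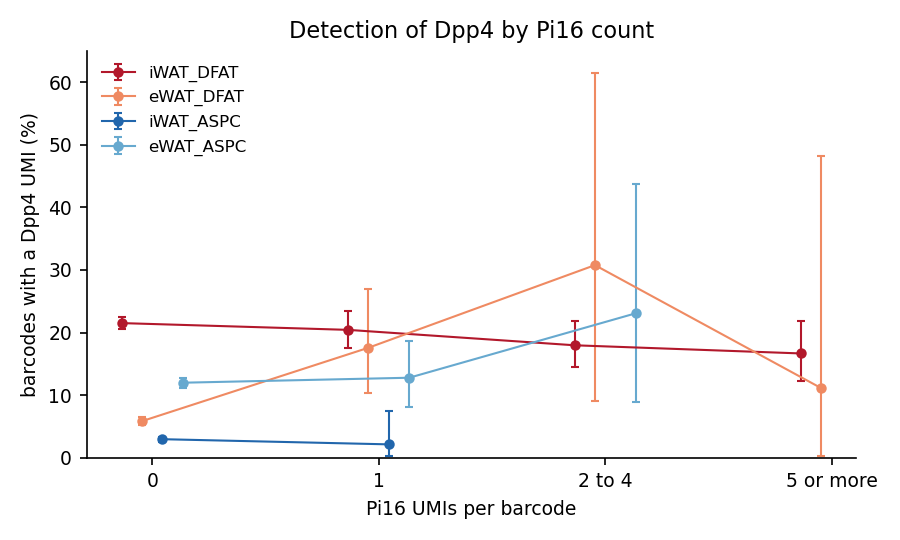
The percent of barcodes with a Dpp4 UMI is plotted by the number of Pi16 UMIs in the barcode for each library (points, exact 95% binomial intervals), with classes of fewer than 9 barcodes left out. The iWAT_DFAT line runs from 21.5% to 16.7%, and the eWAT_DFAT line is higher at 1 Pi16 UMI (17.6%) than at 0 (5.86%).

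Most double-positive cells rested on few molecules. In iWAT_DFAT, 83 of the 270 held exactly 1 UMI of each gene and 36 held at least 2 of each. The median member held 1 UMI of either gene, while the highest held 13 of *Dpp4* and 55 of *Pi16*. Inside the depth limits, the shallowest member had 7129 UMIs and 18 members had over 7000 genes. Just outside, 37 barcodes with both genes were dropped for over 7500 genes and 5 more for over 75000 UMIs, and 0 barcodes with both genes lay between 500 UMIs and the lower limit. When each barcode was thinned to 5000 UMIs, 38 barcodes of iWAT_DFAT held both genes (0.498%), where the product of the shares gave 37.4. The other libraries then held 0 (eWAT_DFAT), 0 (iWAT_ASPC) and 4 (eWAT_ASPC).

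Droplets without a cell carried the same transcripts. In droplets of 1 to 100 UMIs of iWAT_DFAT, *Dpp4* stood at 15.6 CPM (12.9 to 18.7) and *Pi16* at 26.4 CPM (22.8 to 30.4), close to the levels over all cells. At 5% free RNA, a barcode of median depth would receive 0.0172 UMIs of *Dpp4* and 0.0291 of *Pi16*. The 5% was an assumed setting, and the true share of free RNA was not measured. Endothelial cells should lack *Pi16*. In iWAT_DFAT, 23 barcodes carried 3 or more endothelial markers, at a median of 19703 UMIs, and 3 of them held *Pi16* (13.0%, interval 2.78 to 33.6%), an interval that includes the 18.6% of the whole library. None of the 23 held *Dpp4*, which allows a share of up to 13.0% by the limit of 3 counts and 14.8% by the exact interval. In eWAT_ASPC 18 of 240 endothelial barcodes held *Dpp4* (7.5%, interval 4.51 to 11.6%), below the 12.1% of that library. In iWAT_ASPC 4 of 79 held *Pi16* (5.06%, interval 1.40 to 12.5%), above the 1.36% of that library, and in eWAT_DFAT 0 of 185 did (exact upper bound 1.97%). No endothelial barcode in any library was double-positive. *Pi16* was unevenly spread over cells: the 76 barcodes with most *Pi16* held 32.0% of its UMIs in iWAT_DFAT.

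Depth and doublet scores differed between the classes. In iWAT_DFAT the double-positive cells had a median of 23234 UMIs and the double-negative cells 21774. The cells with *Dpp4* only had 25788 and those with *Pi16* only 19378. The highest Scrublet doublet scores took in 13.3% of double-positive cells (36 of 270), against 6.51% of *Dpp4*-only, 8.79% of *Pi16*-only and 4.97% of double-negative cells. In eWAT_DFAT and eWAT_ASPC, 1 double-positive cell each was among the highest scores. Mitochondrial UMIs were a median 3.09% in double-positive and 3.10% in double-negative cells of iWAT_DFAT. The libraries shared 13 to 20 barcode sequences per pair, and 0 of them were double-positive in both.

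The double-positive cells of iWAT_DFAT were fibroblast-like. *Pdgfra*, the receptor that marks adipose fibroblasts, had a UMI in 97.4% of them and in 92.02% of double-negative cells, and its level was 327 against 222 CPM. Of the 9 endothelial, 12 immune cell, 8 neural and 8 pericyte markers, 6, 6, 6 and 7 had any UMI in the double-positive cells. The summed levels were 11.8 against 28.7 CPM (endothelial), 28.5 against 20.2 (immune cell), 6.52 against 7.29 (neural) and 38.5 against 25.6 (pericyte). Of the 10 mesothelial markers 4 had a UMI there, at 8.22 against 8.99 CPM. In eWAT_ASPC all 10 mesothelial markers were seen in the double-positive cells, at 319 against 98.9 CPM. That library's *Dpp4*-only cells included 324 of 785 with 5 or more mesothelial markers, against 3 of 28 double-positive and 159 of 5760 double-negative cells. The part of mesothelial cells in the eWAT_ASPC values below was not tested.

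Genes of early adipose progenitors were mostly higher in double-positive than in double-negative cells of iWAT_DFAT, with modest ratios. Of 30 listed genes besides *Dpp4* and *Pi16*, 23 reached 5 CPM in the library. Of these, 8 were at least 1.5-fold higher (34.8%), and 1 was at least 1.5-fold lower (4.35%). Over all 10011 genes at 5 CPM, 3.63% were at least 1.5-fold higher and 1.63% at least 1.5-fold lower. The median log2 ratio of the list was 0.46, beside -0.02 over all genes. The sum over the list was 3709 CPM in double-positive, 3168 in *Dpp4*-only, 2909 in *Pi16*-only and 2546 in double-negative cells.

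*Cd55*, a complement inhibitor on the cell surface, led the list at 31.7 CPM against 8.27 (log2 ratio 1.94, 1.72 to 2.15). A UMI of *Cd55* was found in 32.6% of double-positive and 11.4% of double-negative cells. The alarmin *Il33* stood at 53.8 against 16.5 CPM (log2 ratio 1.71, 1.55 to 1.87), and 1 cell held 17.6% of its member UMIs. *Tnfaip6*, a hyaluronan-binding secreted protein, stood at 467 against 176 CPM (log2 ratio 1.41). The transcription factor *Creb5* (67.7 against 29.3 CPM), the surface protein *Ly6c1* (172 against 78.8 CPM) and the scavenging chemokine receptor *Ackr3* (136 against 64.5 CPM) had log2 ratios of 1.21, 1.13 and 1.08. The microfibril genes *Fbn1* and *Mfap5* had log2 ratios of 0.56 and 0.50, just under the 1.5-fold line. *Anxa3*, *Dbn1* and *Sema3e* stood near 0, at 0.06, 0.00 and -0.16. *Igfbp5* ran the other way, at 7.79 against 13.7 CPM (log2 ratio -0.81), but reached 0.026 against the 810 double-negative cells nearest in UMI total. *Bmp7* and *Wnt2* were under 5 CPM in the library.

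Genes of committed preadipocytes were split. Of 14 listed genes at 5 CPM, 2 were at least 1.5-fold higher (14.3%) and 6 at least 1.5-fold lower (42.9%), beside 3.63% and 1.63% of all genes. The median log2 ratio was -0.33. It was 0.11, the opposite sign, for the 36 cells with at least 2 UMIs of each gene. Per cell the classes were close, with a median of 1268 CPM of the summed list in double-positive and 1323 CPM in double-negative cells, and 47.8% of double-positive cells were above the latter. The highest cell had 6215 CPM among the double-positive and 70156 CPM among the double-negative cells. *Cxcl14*, a chemokine gene, was the lowest of all 10011 genes, at 9.92 against 94.2 CPM (log2 ratio -3.25, -3.61 to -2.91). Yet *Cxcl14* had a UMI in 14.8% of double-positive and 15.6% of double-negative cells, so the difference lay in the number of UMIs per positive cell. *Pparg*, the master regulator of adipocyte differentiation, stood at 17.6 against 48.7 CPM (log2 ratio -1.47), with a UMI in 24.1% against 36.4% of cells. *Fabp4*, a fatty acid carrier, stood at 139 against 358 CPM (log2 ratio -1.37) although it was seen in 72.2% against 64.2% of cells. *Col15a1* and the preadipocyte regulator *Zfp423* had log2 ratios of -1.12 and -0.92. The 2 higher genes were *Icam1* (14.0 against 8.15 CPM, log2 ratio 0.78) and *Ggt5* (0.62). *Lpl*, lipoprotein lipase, was near 0 at 0.03.

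**Figure D3:**
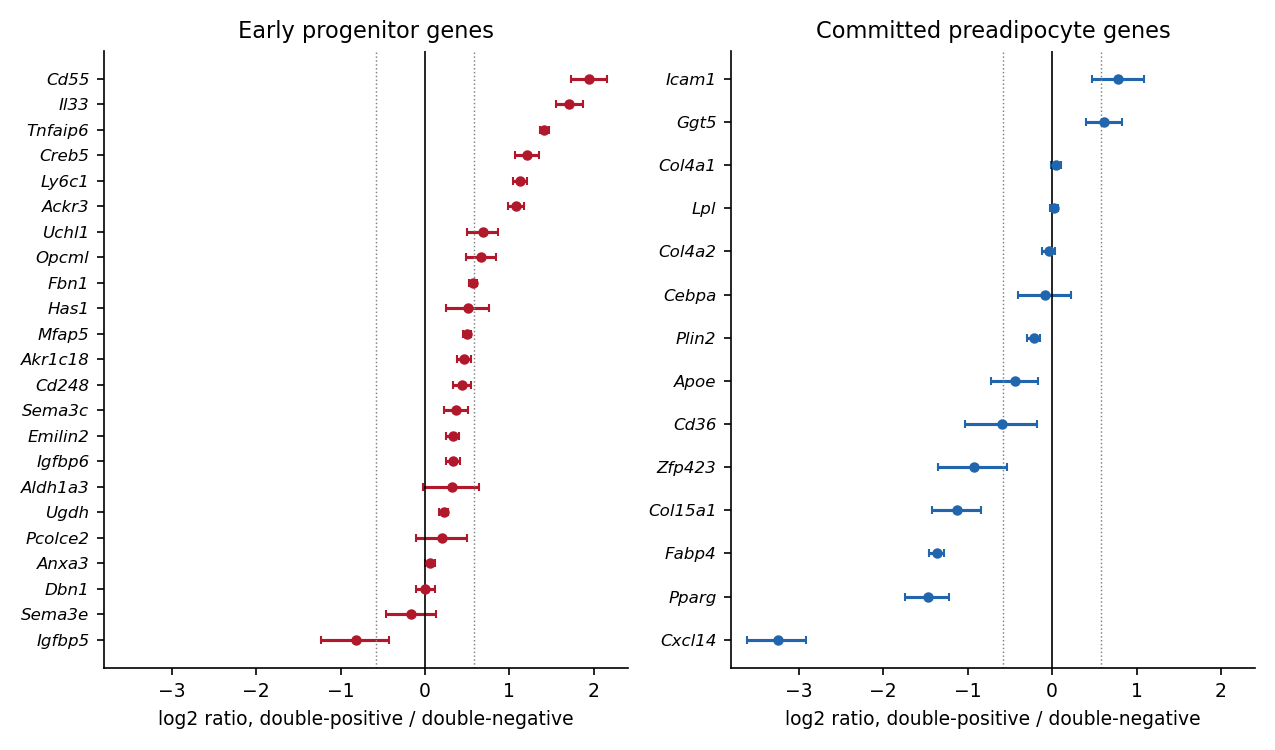
Log2 ratios of CPM between double-positive and double-negative barcodes of iWAT_DFAT are plotted with exact conditional 95% intervals (counting error only) for listed genes at 5 or more CPM, with dotted lines at 1.5-fold. Of the 23 early progenitor genes 21 lie right of 0, led by Cd55 at 1.94, and 6 of the 14 committed preadipocyte genes lie left of the lower line, with Cxcl14 at -3.25.

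The adipocyte and contractile genes past 1.5-fold were all lower. Of the 4 adipocyte genes at 5 CPM, 2 were at least 1.5-fold lower, beside 1.63% of all genes. *Plin4*, a lipid droplet protein, stood at 3.68 against 7.97 CPM, and *Plin1* at 12.3 against 12.5 CPM. Of the 9 contractile genes, 3 were at least 1.5-fold lower (33.3%) and the median log2 ratio was -0.49. The summed contractile list was lowest in *Pi16*-only cells, at 3448 CPM, with double-positive cells at 3876 CPM. It was 4873 CPM in *Dpp4*-only and 4685 CPM in double-negative cells. *Acta2*, smooth muscle actin, was at 215 against 451 CPM (log2 ratio -1.07), and *Pi16*-only cells were at 215 CPM as well. The *F3* stromal list, for cells known to hold back adipogenesis, had 0 genes higher and 2 lower of 7: *Mgp* at -1.15 and *Igfbp3* at -0.71. *Igfbp3* went the other way elsewhere, at 75.1 against 21.8 CPM in eWAT_DFAT, 191 against 122 CPM in eWAT_ASPC and 331 against 29.3 CPM in iWAT_ASPC. The iWAT_ASPC value came from 13 UMIs in 2 cells (176 to 566 CPM). Its double-negative level was under the 76.4 CPM that would give 3 counts in those cells. *F3* itself had a log2 ratio of 0.42.

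Pan fibroblast genes past 1.5-fold were all higher, while matrix genes went both ways. Of 15 pan fibroblast genes, 4 were at least 1.5-fold higher (26.7%) and 0 lower, beside 3.63% and 1.63% of all genes. Their summed level was 13217 CPM in *Pi16*-only cells, above the 12934 CPM of double-positive cells. It was 10075 CPM in *Dpp4*-only and 9982 CPM in double-negative cells. The proteoglycan genes *Dcn* (2806 against 1397 CPM) and *Lum* (17.1 against 8.08 CPM) had log2 ratios of 1.01 and 1.09, and *Col3a1* had 0.67. *Ly6a*, the Sca-1 antigen of mesenchymal progenitors, had 0.53. Of 21 matrix genes, 2 were at least 1.5-fold higher, *Fndc1* (log2 ratio 1.88) and *Tnxb* (1.17), and 2 lower, *Timp3* (-0.85) and *Postn* (-0.77). *Postn* was higher in the double-positive cells of the other libraries, at 129 against 52.4 CPM in eWAT_DFAT, 313 against 248 CPM in eWAT_ASPC and 968 against 401 CPM in iWAT_ASPC. The iWAT_ASPC value came from 38 UMIs in 2 cells.

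Among the lists with at least 10 genes at 5 CPM, the interferon response had the largest share past 1.5-fold. All 11 at 5 CPM were on the higher side and 8 were at least 1.5-fold higher (72.7%), beside 3.63% of all genes. The median log2 ratio was 0.90. *Ifi27l2a*, an interferon-induced gene, stood at 63.2 against 17.6 CPM (log2 ratio 1.85), and *Bst2*, the antiviral protein tetherin, at 146 against 73.0 CPM (log2 interval 0.90 to 1.09). The sum over the 15 genes was 468 CPM in double-positive, 307 in *Dpp4*-only, 410 in *Pi16*-only and 247 in double-negative cells. The list was uneven within every class. The median double-positive cell had 354 CPM in the list, and the range ran from 0 to 4618 CPM. Medians were 169 CPM in *Dpp4*-only (0 to 10024), 271 in *Pi16*-only (0 to 9350) and 127 in double-negative cells (0 to 14370). *Ifi27l2a* and *Ifit3* have close paralogs, so their counts are uncertain where reads could be split.

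Of the 15 inflammatory genes, 4 were at least 1.5-fold higher (26.7%) and 0 lower, beside 3.63% and 1.63% of all genes. Their summed level was 22063 CPM in *Pi16*-only cells, above the 20872 CPM of double-positive cells. It was 15248 CPM in *Dpp4*-only and 15213 CPM in double-negative cells. *Saa3*, an acute phase protein, stood at 6138 against 2322 CPM (log2 ratio 1.40), *C3*, the central complement component, at 501 against 210 CPM (1.25), and *Lcn2*, an iron-sequestering protein, at 302 against 140 CPM (1.12). The chemokine *Cxcl12*, a known DPP4 substrate, was the other one, at 0.68. *Spp1*, osteopontin, was at 1428 against 2127 CPM (log2 ratio -0.57). Of the 5 DPP4 substrate genes at 5 CPM, 2 were at least 1.5-fold higher (*Cxcl12* and *Ccl11*, 0.65) and 2 lower (*Ccl5*, -1.65, and *Cxcl10*, -0.62). *Ccl5* was at 2.55 against 8.01 CPM and turned to 0.43 against the nearest cells in UMI total. Among 6 genes of the DPP4 enzyme family, 1 passed 1.5-fold, *Dpp7* at 0.65, and *Fap*, the closest relative, stood at 0.40. *Fap* was at 1.03 against 5.92 CPM in eWAT_ASPC, lower in the double-positive cells. None of the 3 CAP family genes passed in either direction.

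Proliferation was similar or slightly lower. None of the 28 cell cycle genes passed 1.5-fold in either direction, and their median log2 ratio was -0.16. *Mki67* and *Top2a* stood at -0.17 and 0.02. In eWAT_DFAT *Mki67* was higher, at 143 against 101 CPM, and in eWAT_ASPC lower, at 40.2 against 73.6 CPM. Of the double-positive cells, 43.0% were above the median of all double-negative cells in the summed list. Of 16 TGF-beta and Wnt genes, 2 were at least 1.5-fold higher (*Tgfb2*, 0.96, which turned to -0.55 in the 36 cells with at least 2 UMIs of each gene, and the receptor *Tgfbr2*, 0.61) and 2 lower (*Ccn2*, -0.65, and *Wnt5a*, -0.66). Both classes were inguinal cells of 1 library, so depot did not differ between them by design. At 5 CPM, 0 of the 7 inguinal depot factors and 0 of the 2 visceral ones passed 1.5-fold. For lists this short, 0 is near the 3.63% higher and 1.63% lower of all genes.

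Genes that reached 20 CPM in either class of iWAT_DFAT were ranked by ratio, and *Adgrd1* came first of the 15 with the largest positive one. *Adgrd1*, an adhesion G protein-coupled receptor (chr5:129096750-129204599, plus strand, GRCm38), stood at 116 CPM against 21.8 (log2 ratio 2.42, 2.30 to 2.53). It was found in 63.7% of double-positive and 22.5% of double-negative cells. *Rcan2*, a calcineurin regulator, followed at 23.9 against 5.76 CPM (2.05), then the predicted gene *Gm17167* (2.02) and *Cd55*. The secreted or matrix proteins *C1qtnf7* (1.90), *Prelp* (1.84) and *Abi3bp* (127 against 44.9 CPM), the adhesion molecules *Chl1* (1.63), *Cadm2* (1.49) and *Lsamp* (1.48), the complement component *Cfb* (1.62), the chemokine *Ccl8* (1.61) and the cytokine *Tslp* (1.48) completed the set with *Il33* and *Ifi27l2a*.

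The 15 with the largest negative ratio were led by *Cxcl14*. The proliferin genes *Prl2c3* (25.8 against 121 CPM, log2 ratio -2.22) and *Prl2c2* (73.4 against 218 CPM, -1.57) came next. Their sequences are nearly identical, so the split of reads between them is uncertain. *Pparg*, *Fabp4*, *Mgp*, *Col15a1* and *Acta2* were among the 15, with *Vstm2a* (-1.08), a preadipocyte gene, *Fah* (-0.98), *Ly75* (-0.95), *Fnbp1l* (-0.93), *Ncam1* (-0.88) and the predicted genes *Gm49890* (-1.19) and *Gm49708* (-0.99).

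The classes with a single gene were not alike. The genes below were chosen for their ratio in double-positive cells, so their levels there are a description. *Adgrd1* was at 48.3 CPM in *Dpp4*-only and 53.8 CPM in *Pi16*-only cells, both below the 116 CPM of double-positive cells. *Cd55* was at 16.3 and 14.6 CPM in the 2 classes, against 31.7. *Chl1* was at 34.7 CPM in *Dpp4*-only and 288 CPM in *Pi16*-only cells, with double-positive cells at 186. *Il33* was at 12.1, 51.4 and 53.8 CPM in the same order. *Tslp* was at 20.3, 11.6 and 34.0 CPM, but 1 cell held 45% of its double-positive UMIs and the level without that cell was 18.8 CPM.

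Adipogenic genes also separated the single-gene classes. *Fabp4* stood at 117 CPM in *Dpp4*-only cells and 543 CPM in *Pi16*-only cells, on either side of the 358 CPM of double-negative cells, and double-positive cells (139 CPM) were near the former. *Plin1* was at 2.99 CPM in *Dpp4*-only, 36.6 in *Pi16*-only, 12.3 in double-positive and 12.5 in double-negative cells. *Pparg* was at 26.7, 60.9, 17.6 and 48.7 CPM in that order, lowest in the double-positive cells. The median log2 ratio of the committed preadipocyte list against double-negative cells was -0.55 in *Dpp4*-only, 0.43 in *Pi16*-only and -0.33 in double-positive cells.

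For many of the leading genes the log2 ratio of double-positive cells was close to the sum of those of the single-gene classes. For *Adgrd1* the sum was 2.45 beside 2.42, for *Cfb* 1.58 beside 1.62 and for *Cxcl14* -3.35 beside -3.25. *Pparg* (sum -0.55, measured -1.47) and *Lsamp* (2.43 and 1.48) were furthest from it, with *Tslp* (0.66 and 1.48). Without that 1 cell, *Tslp* was at 0.62, near its sum. *Lsamp* was at 1.21 without the cell that held the largest number of its UMIs, further from its sum. All 3 ratios share the double-negative cells.

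**Figure D4:**
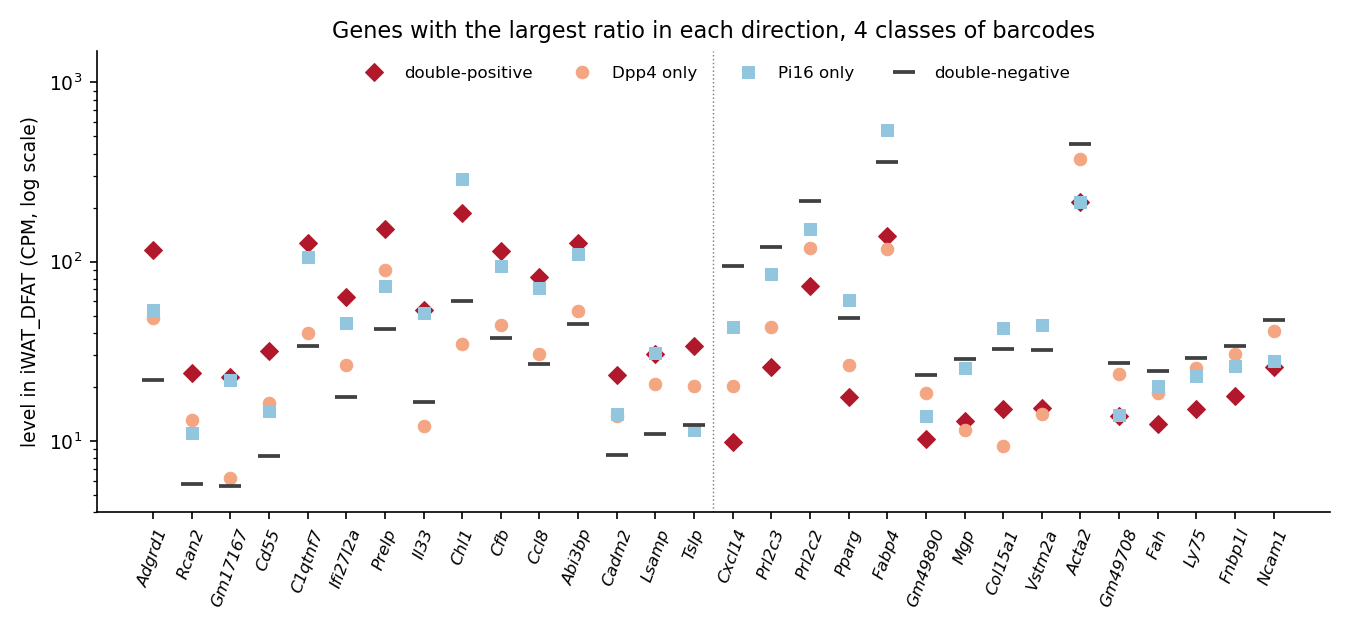
Levels in iWAT_DFAT (CPM, log axis) are plotted for the 15 genes with the largest ratio in each direction in double-positive, Dpp4-only, Pi16-only and double-negative barcodes. Adgrd1 is highest in double-positive cells (116 CPM), whereas Chl1 is highest and Fabp4 far higher in Pi16-only cells (288 and 543 CPM).

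Across libraries, the double-positive cells of eWAT_DFAT and eWAT_ASPC were few, and a handful of cells could set a level. Genes were compared where the double-negative level would give at least 3 counts in the double-positive cells (5.63 CPM in eWAT_DFAT and 3.10 CPM in eWAT_ASPC). Of the 15 genes with the largest positive ratio in iWAT_DFAT, 8 reached this level in eWAT_DFAT and double-positive cells were above for 7 of them. In eWAT_ASPC 9 reached it and 6 were above. Among the 6, *Abi3bp* and *C1qtnf7* were above only with 1 cell included (log2 ratios of -0.29 and -0.11 without it). Of the 15 with the largest negative ratio, double-positive cells were below for 14 of 15 in eWAT_DFAT and for 10 of the 11 at this level in eWAT_ASPC. In eWAT_ASPC the double-negative level lay inside the counting interval of the double-positive cells for *Pparg*, *Col15a1*, *Fah*, *Ly75*, *Fnbp1l* and *Ncam1*. For *Cxcl14*, *Fabp4*, *Mgp* and *Acta2* the double-negative level lay above that interval. In eWAT_DFAT it lay inside for *Col15a1*. *Adgrd1* was at 148 against 12.4 CPM in eWAT_DFAT and 334 against 150 CPM in eWAT_ASPC, with a UMI in 17 of 21 and 27 of 28 double-positive cells. *Cd55* was at 30.0 against 7.29 CPM and 20.6 against 7.20 CPM. The double-positive cells were above in all 3 libraries for both genes. *Cxcl14* was not detected in the 21 cells of eWAT_DFAT, where double-negative cells had 126 CPM, and stood at 3.10 against 75.7 CPM in eWAT_ASPC. The 2 cells of iWAT_ASPC held 8 UMIs of *Cxcl14*, 204 CPM (88.0 to 402) beside 824 CPM. *Acta2* was at 2573 CPM (2096 to 3127) beside 8868 CPM there, and *Col3a1* at 2777 CPM (2280 to 3350) beside 1076 CPM.

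A count model over these 3 libraries tested the difference that they share. UMIs were summed over the double-positive and over the double-negative cells of each library, and edgeR's quasi-likelihood test was run with the library as a block. Libraries of different depot and origin stood as the replicates, 2 residual degrees of freedom were left, and the iWAT_ASPC library was not fitted because it had 2 double-positive cells. At an adjusted p under 0.05, 372 of 15829 genes (2.35%) were higher and 259 (1.64%) lower in double-positive cells. Scaling with DESeq2 size factors moved the split to 489 higher and 150 lower, and dropping the filter on low counts moved it to 340 higher and 453 lower. With 3 double-negative cells nearest in UMI total per double-positive cell, 63 were higher and 10 lower of 10295 tested, and all 73 were among the 631 of the full comparison. Without the library block 0 were called in edgeR, with 118 higher and 278 lower at an unadjusted p under 0.05. Leaving out iWAT_DFAT gave 125 higher and 77 lower, leaving out eWAT_DFAT 376 and 168, and leaving out eWAT_ASPC 328 and 90. edgeR estimates the spread of a gene with the help of all other genes, so an adjusted p below measures neither that gene's own spread over the 3 libraries nor the spread over replicate cultures.

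The early progenitor list rose in part: 15 of 29 tested genes were called higher and 1, *Igfbp5*, lower, beside 2.35% and 1.64% of all genes. *Cd55* rose by a log2 fold change of 1.78 ± 0.22 (SE, edgeR's quasi-likelihood test with Benjamini-Hochberg adjustment, adjusted p = 1.04e-12), *Ly6c1* by 1.35 ± 0.19 (adjusted p = 4.52e-10) and *Creb5* by 0.97 ± 0.17 (adjusted p = 8.81e-07). *Mfap5* (0.56) and *Ackr3* (1.12) were called as well. *Ackr3* was at 1.88 against 2.10 CPM in eWAT_DFAT, so its call rested on the other 2 libraries. *Creb5*, *Mfap5*, *Ly6c1* and *Ackr3* were also called against the nearest cells in UMI total, which made 4 calls of 24 genes. Over all 10295 genes of that comparison, 63 were called higher and 10 lower. Without iWAT_DFAT, *Creb5*, *Mfap5* and *Ackr3* were not called (edgeR, adjusted p = 0.176, 0.250 and 0.210), and without eWAT_ASPC *Mfap5* was not (edgeR, adjusted p = 0.0726). *Il33*, *Tnfaip6*, *Cd248*, *Opcml*, *Akr1c18*, *Uchl1* and *Emilin2* were called over the 3 libraries but not without iWAT_DFAT. *Il33* and *Tnfaip6* then had log2 fold changes of 0.25 and 0.27. *Cd55*, *Ly6c1* and *Fbn1* stayed called without iWAT_DFAT. In eWAT_ASPC, *Il33* and *Akr1c18* had 0 UMIs in the double-positive cells. *Igfbp5* was not called without any 1 of the 3 libraries. Against the nearest cells in UMI total, *Cd55* just missed the threshold, with a log2 fold change of 1.61 (edgeR, adjusted p = 0.050002).

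Of 16 pan fibroblast genes, 8 were called higher and 1 (*Vim*) lower, beside 2.35% and 1.64% of all genes. *Dcn* was at 2806, 1263 and 566 CPM in the double-positive cells of iWAT_DFAT, eWAT_DFAT and eWAT_ASPC, against 1397, 234 and 239 CPM. It rose by 1.45 ± 0.14 on the log2 scale (edgeR, adjusted p = 1.73e-23). *Lum* rose by 1.79 ± 0.20 (edgeR, adjusted p = 1.08e-15). Of 18 committed preadipocyte genes, 7 were called lower and 1 (*Ggt5*) higher, beside 1.64% and 2.35% of all genes. *Cxcl14* had a log2 fold change of -3.74 ± 0.21 (edgeR, adjusted p = 7.09e-66) and *Pparg* -1.79 ± 0.21 (edgeR, adjusted p = 3.69e-14). *Fabp4* was at 139, 312 and 202 CPM, against 358, 2264 and 345 CPM, and had a log2 fold change of -1.74 (edgeR, adjusted p = 1.45e-30), but was not called against the nearest cells in UMI total, where it had -1.78 (edgeR, adjusted p = 0.0983). Without iWAT_DFAT the log2 fold changes of *Cxcl14*, *Pparg* and *Lum* were -5.70, -2.65 and 2.38, and without eWAT_DFAT that of *Fabp4* was -1.11. *Cxcl14* had 0 UMIs in the double-positive cells of eWAT_DFAT, so its fitted value is no bound. *Vim* was not called without eWAT_DFAT, nor *Ggt5* without iWAT_DFAT or without eWAT_ASPC. *Col1a1*, *Col1a2* and *Dpt* were not called without eWAT_DFAT either. In eWAT_DFAT, 100% of double-positive and 77.9% of double-negative cells had a *Pdgfra* UMI, and 182 double-negative cells carried 3 or more endothelial markers. In eWAT_ASPC the *Pdgfra* shares were 75% and 73.0%. The part of this cell make-up in the calls was not tested. Against the nearest cells in UMI total, 2 of 15 committed preadipocyte genes were called lower (*Pparg* and *Cxcl14*) and 0 higher. Of 15 pan fibroblast genes, 2 were called higher against the same cells (*Dcn* and *Lum*). Over all 10295 genes of that comparison, 63 were called higher and 10 lower.

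The interferon list had 9 of 15 genes called higher and 0 lower, beside 2.35% and 1.64% of all genes. *Ifi27l2a* was at 63.2, 182 and 60.9 CPM in the double-positive cells of the 3 libraries and 17.6, 30.6 and 19.97 CPM in double-negative cells (log2 fold change 1.92 ± 0.15, edgeR, adjusted p = 8.19e-32). *Bst2* was at 146, 321 and 202 CPM, against 73.0, 127 and 92.2 CPM (log2 fold change 1.05, edgeR, adjusted p = 1.41e-11). *Bst2*, *Oasl2* and *Ifi27l2a* were called against the nearest cells as well. All 9 contractile genes called, of 12 tested, were lower, and 0 were called against the nearest cells. *Acta2* had a log2 fold change of -1.01 in the full comparison and -0.76 there (edgeR, adjusted p = 0.0919). Of 28 cell cycle genes 0 were called higher and 3 lower, beside the same 2.35% and 1.64% of all genes.

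Of 15 inflammatory genes, 5 were called higher and 1 (*Spp1*) lower, beside 2.35% and 1.64% of all genes. Against the nearest cells in UMI total, 2 were called higher (*Lcn2* and *C3*) and 0 lower, beside 63 and 10 of 10295 genes. *C3* was higher in all 3 libraries, at 501, 642 and 185 CPM against 210, 79.9 and 72.6 CPM (log2 fold change 1.76, edgeR, adjusted p = 9.54e-32). *Saa3* was higher in iWAT_DFAT (6138 against 2322 CPM) and eWAT_DFAT (5086 against 620 CPM), but in eWAT_ASPC the double-positive cells were at 6.19 CPM, all from 1 cell, and the double-negative cells at 21.7 CPM. *Lcn2* was at 837 against 144 CPM in eWAT_DFAT and 2.06 CPM (2 UMIs, 0.25 to 7.45) against 3.401 CPM in eWAT_ASPC. The difference between the libraries was not tested. Of the other cell types' markers, 7 of 9 endothelial genes were called lower in double-positive cells and 4 of 9 mesothelial genes higher, among them *Upk3b*, which had a UMI in 4 of the 28 double-positive cells of eWAT_ASPC. Against the nearest cells in UMI total, 0 of 2 endothelial and 0 of 3 mesothelial genes tested were called.

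**Figure D5:**
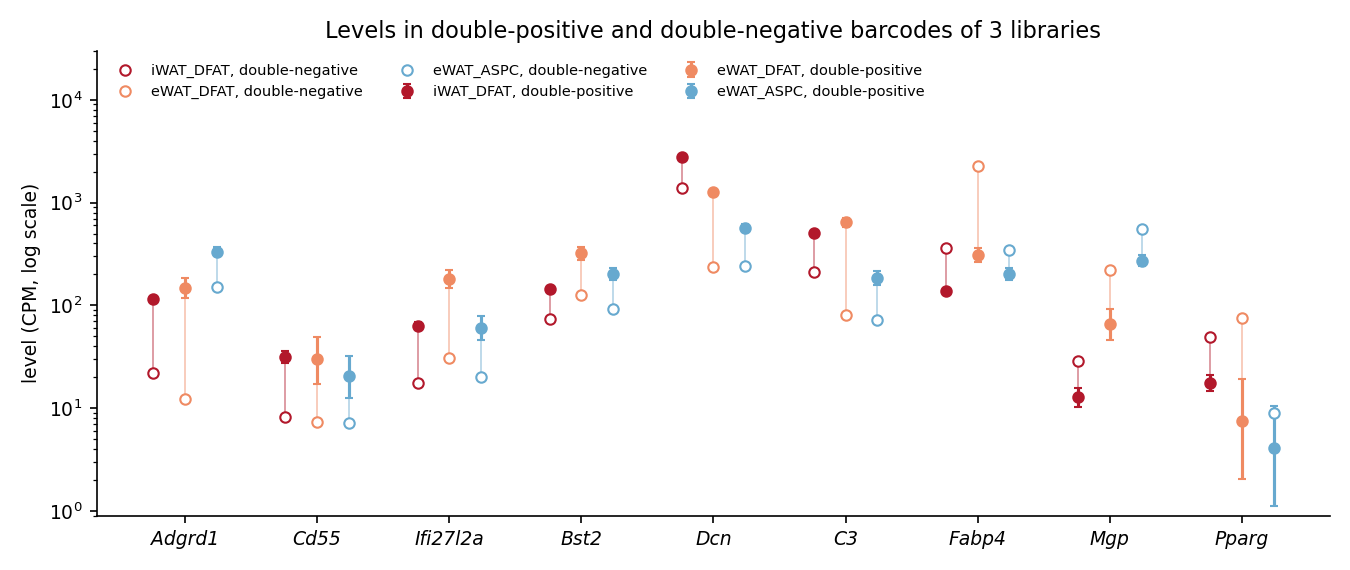
Levels (CPM, log axis) of 9 genes are plotted for double-positive barcodes (filled points, exact 95% Poisson intervals) and double-negative barcodes (open points) of the iWAT_DFAT, eWAT_DFAT and eWAT_ASPC libraries. In each of the 3 libraries the filled point is above the open point for Adgrd1, Cd55, Ifi27l2a, Bst2, Dcn and C3 and below it for Fabp4, Mgp and Pparg.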

How the data were processed

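Counts were analysed for 4 single-cell libraries, 1 per condition. The deposited values are raw UMI counts per gene and barcode, made by the authors with Cell Ranger against mm10, introns included, before CellBender, cell filters and DoubletFinder. The labels name version 7.0.0. The file headers name 7.1.0, and Cell Ranger 4 for iWAT_ASPC. Libraries held 211396227 to 242282812 UMIs over 32285 genes. The methods' minimum of 500 UMIs was replaced by 5000. The double-positive cells, gene lists and tests were chosen with earlier results of these data known, and the lists are not independent evidence.

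CPM were computed from UMIs summed over a class. Shares carry exact binomial, levels exact Poisson and ratios exact conditional binomial intervals at 95%. A floor is 3 counts. Ratios called at 1.5-fold were computed in iWAT_DFAT, which alone held at least 50 double-positive cells, for genes at 5 or more CPM. Some log2 ratios are also given for eWAT_DFAT and eWAT_ASPC, which had 21 and 28 double-positive cells, under that minimum. Expected counts and odds ratios (Mantel-Haenszel) used bins of 0.1 in log10 UMIs. Doublets were scored with Scrublet, the top 0.8% per 1000 barcodes being taken as highest, since its automatic threshold marked almost none. Genes were taken from the lists and from the 15 furthest from 1 on either side. The latter were at 20 or more CPM in the higher class, without mitochondrial genes, *Dpp4* and *Pi16*. Counts over the 98 named genes cover those 15 on either side and a chosen part of other genes, mostly of the lists. They do not cover every list gene. The lists cover early progenitor, pan fibroblast, committed preadipocyte, *F3* stromal, adipocyte, contractile, matrix, immune response, interferon response, cell cycle, DPP4 family and substrate, CAP, TGF-beta and Wnt, depot and other cell type genes.

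Sums per library with at least 10 double-positive cells were tested with edgeR 4.0.16 (TMM, filterByExpr, glmQLFit, glmQLFTest, library block, Benjamini-Hochberg over all genes) in R 4.3.3. DESeq2 1.42.0 was an alternative. Other work used Python 3.11.15, scipy 1.17.1, pandas 2.3.3 and scanpy 1.11.5. Both procedures were run on simulated data. The simulated counts for the ratio intervals held counting error only, so that run says nothing about the spread between cells. Alternatives changed depth matching, doublets, UMI minimum, weighting, cell cycle, *Pdgfra*, free RNA, scaling, filter, block and libraries.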

Additional observations from a re-analysis of the deposited data

Results flagged for a closer look

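Among the 98 named genes, which leave out part of the lists, 4 moved one way in both DFAT libraries and the opposite way in eWAT_ASPC. Each did so beyond its counting interval. The difference was not tested, and the eWAT_ASPC values rest on 28 double-positive cells. The log2 ratio of *Saa3* was 1.40 in iWAT_DFAT, 3.04 in eWAT_DFAT and -1.81 in eWAT_ASPC. *Cxcl12* had 0.68, 1.69 and -1.32 in the same order. *Timp3*, a metalloproteinase inhibitor, had -0.85, -1.03 and 1.13, and the predicted gene *Gm49708* had -0.99, -1.02 and 0.74. In eWAT_ASPC, 1 cell held 46.2% of the double-positive UMIs of *Gm49708*, and without that cell the log2 ratio was -0.09. The 6 UMIs of *Saa3* there came from 1 cell.

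Barcodes with over 7500 genes were left out by the definition of the class. Of 270 such barcodes in iWAT_DFAT, 42 held both *Dpp4* and *Pi16* (15.6%, interval 11.4 to 20.4%) at a median depth of 62657 UMIs. In eWAT_DFAT 0 of 311 did, in iWAT_ASPC 1 of 425 and in eWAT_ASPC 3 of 389. Doublets and single deep cells cannot be told apart there.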

How the results depend on the processing

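The share of double-positive cells stayed within its counting interval with a minimum of 500 UMIs, with no upper limit on genes and without the highest doublet scores in all 4 libraries. It moved with the UMIs asked for. At least 2 UMIs of each gene gave 0.472%, 0.0309%, 0% and 0.0297% in iWAT_DFAT, eWAT_DFAT, iWAT_ASPC and eWAT_ASPC, and thinning to 5000 UMIs gave 0.498%, 0%, 0% and 0.0593%. In iWAT_DFAT, the 36 cells with at least 2 UMIs of each gene gave a median log2 ratio of 0.80 for the early progenitor, 1.12 for the interferon and 0.11 for the committed preadipocyte list, the last reversed. There *Cd36* turned to 1.32, *Tgfb2* to -0.55 and *Lsamp* to -0.021, and 826 genes were at least 1.5-fold higher and 961 lower, on fewer UMIs. Against the nearest cells in UMI total the interferon median was 1.17, *Igfbp5* turned to 0.026, *Ccl5* turned to 0.43, and 276 genes were at least 1.5-fold lower. That count was 261 without the highest doublet scores and 397 among cells below the median of cell cycle genes. Of 686 values of 98 named genes under the alternatives, 459 stayed inside the counting interval, 222 left it and 5 reversed. Leaving out, for each gene, the double-positive cell with the largest number of its UMIs was chosen after seeing the data. It kept 85 of the 98 inside the interval and reversed 0, with *Tslp* at 0.62.

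In the count model, the calls were 489 higher and 150 lower with DESeq2 size factors, 159 and 25 with DESeq2, which gave no adjusted p for 3069 genes, 340 and 453 without a filter, 63 and 10 with the nearest cells in UMI total, and 0 and 0 without the block. With a library left out they ranged from 125 to 376 higher and from 77 to 168 lower. Of 65 named genes called, 24 were called with the nearest cells in UMI total, 32 without iWAT_DFAT, 31 with DESeq2 and 0 without the block. *Acta2*, *Saa3*, *Spp1*, *Lcn2* and *Il33* were among those not called with DESeq2. None of the named calls changed sign. The cause of these changes was not tested. The comparison with the nearest cells covered 10295 genes and that without a filter 25432, against 15829 in the full comparison and without the block. The library block pairs the classes within each library, and the labels give no other pairing.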

Other observations

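Some genes outside the lists were called in the count model both against all double-negative cells and against those nearest in UMI total. They are named here after their values were seen. *Cemip*, a hyaluronan-degrading protein, stood at 1039, 343 and 1076 CPM in the double-positive cells of iWAT_DFAT, eWAT_DFAT and eWAT_ASPC, against 475, 200 and 565 CPM in double-negative cells. *Serpine2*, a protease inhibitor, was at 128, 218 and 60.9 CPM, against 72.6, 44.6 and 23.7 CPM. *Slfn5*, an interferon-induced gene, was at 93.4, 30.0 and 84.6 CPM, against 37.0, 9.55 and 31.3 CPM. The complement genes *C1s1* (146, 78.8 and 31.0 CPM against 80.5, 13.7 and 16.3) and *C4b* (37.8, 11.3 and 14.4 CPM against 14.7, 2.54 and 4.05) were higher in the double-positive cells of each of the 3 libraries. *G0s2*, an inhibitor of lipolysis, was lower in each, at 4.68, 15.02 and 40.2 CPM against 12.9, 42.6 and 78.1 CPM.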
